A study of Homo sapiens with 4 samples.

Results

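Tetraspanins are small proteins with several membrane-spanning segments that gather integrins, immunoglobulin-family proteins, proteases and signalling molecules into patches of the cell membrane. CD9, CD63 and CD81 are carried on extracellular vesicles and are widely used to mark them, CD63 mainly on late endosomes and lysosomes and CD9 and CD81 mainly at the cell surface. Other members steer the protease ADAM10, assist Frizzled signalling or cover the surface of the bladder epithelium. The set described here held every gene named TSPAN with a number on the array, together with CD9, CD37, CD53, CD63, CD81, CD82, CD151, UPK1A and UPK1B. This gave 31 genes, measured by 44 probes, of 43317 gene names on the array, and the probe with the highest mean signal over the 4 arrays stood for each gene. All 31 names are current RefSeq symbols.

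The series concerns PSAT1, an aminotransferase of serine synthesis, and vesicle release by cancer cells. HCT116 is a colorectal cancer line, here grown in McCoy's 5A medium, and A549 is a lung cancer line, here grown in DMEM. Each line was transfected with the microRNA miR-891b or with the negative control RNA NC1 using the lipid reagent Dharmafect1, and the dose and time are not given in the sources used here. Total RNA of each of the 4 groups was measured on 1 single-colour array, so a difference within a line has no replicate and no p-value is given for it. The labels name no other allele or agent, and whether the groups came from separate cultures is not stated. In such bulk RNA, fewer cells of a type and less RNA per cell cannot be told apart.

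The sequences below show the transfected microRNA and the spots that read the tetraspanins the results turn on. Mature miR-891b is encoded at chrX:146001100-146001121 on the minus strand (RefSeq, GRCh38.p14). It is shown 5′ to 3′ with its seed, bases 2 to 8, in capitals.
miR-891b: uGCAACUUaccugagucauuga
The DNA complement of that seed, AAGTTGC, was searched on the probes' own strand, which is that of the transcript. It was in 0 of the 44 tetraspanin probes and in 229 (0.394%) of the 58201 gene probes of the array. A probe covers 60 bases of a transcript only, so this describes the probes and not the transcripts. The probes for CD9, CD63 and TSPAN8 each have at least 1 reading frame without a stop codon and lie on hg19 at chr12:6342625-6344426 (plus strand), chr12:56119667-56119950 (minus strand) and chr12:71526515-71526574 (minus strand). The CD9 probe's 60 bases span 1802 bases of the genome and the CD63 probe's span 284, so both cross a splice junction, while the TSPAN8 probe lies within 1 block.
CD9: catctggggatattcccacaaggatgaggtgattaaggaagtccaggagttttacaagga
CD63: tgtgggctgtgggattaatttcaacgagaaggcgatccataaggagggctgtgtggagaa
TSPAN8: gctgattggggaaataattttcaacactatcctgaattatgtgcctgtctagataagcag

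Levels below are log2 of the processed signal minus the 75th percentile of that array, and a level is compared only with the same probe on another array. A change is miR-891b minus NC1 in a line, and with 1 array per group it is called by size, at 2-fold (1.0 on the log2 scale). A gene counts as measured in a line where the scanner software marked its probe well above background on both arrays. Of the 31 tetraspanins, 22 were above background on all 4 arrays, 2 (TSPAN8 and UPK1B) on 3, TSPAN7 on 2 and TSPAN19 on 1. CD37, CD53, TSPAN2, TSPAN16 and TSPAN32 were not well above background on any array. The spread within an array can be read from probes printed on 5 or more spots, where the SD of the change over spots had a median of 0.061 in HCT116 (276 probes) and 0.071 in A549 (287 probes). This covers the array's own noise and not that of cultures or labelling.

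The arrays had 44.7% to 50.3% of gene probes well above background and no saturated probe. Both HCT116 arrays were on 1 slide and scan and both A549 arrays on another, so line and slide cannot be told apart. The miR-891b and NC1 arrays of a line shared a slide. Stray signal covered 10.5% of the spots of the HCT116 miR-891b array and 0.0214% to 2.20% of the others. Counting any array, it touched the probe standing for 2 tetraspanins, TSPAN14 and TSPAN5, and second probes of CD81 and TSPAN17. All 6 A549 markers were above background in A549, and of the 6 HCT116 markers CDX2, EPCAM, CLDN7 and CLDN3 were higher in HCT116 (A549 minus HCT116 between -6.75 and -3.13 with NC1, log2), whereas VIL1 and CDH17 were not above background there but were in A549. Fibroblast markers were above background for 2 of 7 genes in HCT116 and 4 of 7 in A549, with COL1A2, COL3A1 and DCN not above it on any array. In A549 the fibroblast marker LUM went from 1.03 with NC1 to 3.17 with miR-891b. The others above background there, THY1, COL1A1 and PDGFRB, changed by -1.04, -0.59 and -0.041. The log2 of the summed linear levels of the 7 genes, which the brightest gene dominates, went from 2.09 to 3.40 in A549 (1.40 to 1.13 in HCT116). The part of this in the A549 differences was not tested. PSAT1 was 0.81 lower (log2) with miR-891b in HCT116 and 1.58 lower in A549. A list of 12 mitotic genes had a median change of 0.070 in HCT116 and -1.74 in A549, where 12 of 12 were lower by 2-fold or more, and its part in the A549 differences below was not tested.

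**Figure D1:**
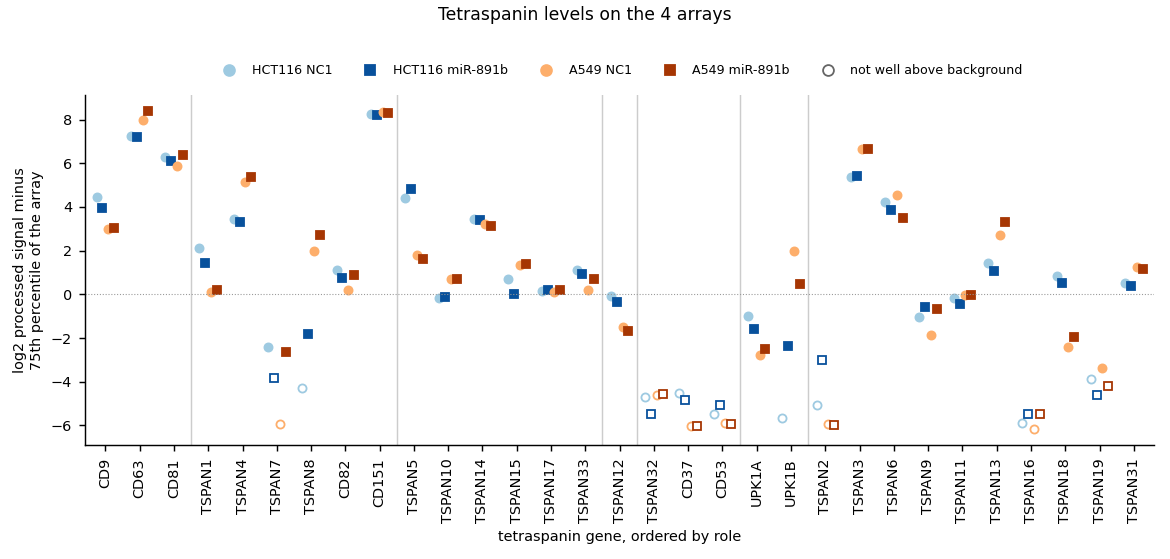
Level of each of the 31 tetraspanins on the 4 arrays, on the log2 scale relative to the 75th percentile of each array, grouped by role with grey lines between the groups. Each point is 1 array and open points are not well above background. Compare points within a gene only. TSPAN5, TSPAN8, TSPAN18 and UPK1B show wide gaps between HCT116 (blue) and A549 (orange), and the 5 genes with 4 open points were not detected above background anywhere.

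In HCT116 no tetraspanin measured on both arrays passed 2-fold with miR-891b. TSPAN8 and UPK1B, which were above background on the miR-891b array alone, have bounds past 2-fold that are given below. Of 22 measured on both arrays, 0 were lower by 2-fold or more, where 0.843% of all 19104 genes measured were, and 0 were higher, where 1.16% of all genes were. Their changes ran from -0.70 (TSPAN15) to 0.46 (TSPAN9), with 17 below 0 and 5 above. The median was -0.19, against -0.041 over all genes, of which 55.5% were below 0. In A549, 24 were measured. TSPAN6 and UPK1B were lower by 2-fold or more, 2 of 24, where 5.57% of 21337 genes were, and TSPAN9 was higher, 1 of 24, where 4.01% were. The median was 0.076 against -0.059 over all genes, with 15 above 0 and 9 below, against 44.4% above 0 over all genes. The counts past 2-fold are too few to set apart from those shares. In A549 18 of 24 were above 0 under quantile normalization (49.9% of all genes) and under median scaling (50.4% of all genes). Under normexp background correction with quantile normalization 19 of 24 were (50.8% of all genes). With the authors' values it was 15 of 24 (44.0%) and with the mean over probes 14 of 24 (44.2%). In HCT116 15 of 22 were below 0 under quantile normalization (53.7% of all genes), median scaling (50.6%) and normexp with quantile normalization (53.8%). The member median in HCT116 was -0.10 in the last of these. An additive limma fit over both lines, with 1 residual degree of freedom, called 0 of the 25 tetraspanins fitted and 0 (0%) of 22717 genes for miR-891b minus NC1 (Benjamini-Hochberg adjusted p under 0.05), while 2 tetraspanins and 1216 genes had an unadjusted p under 0.05.

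Among the vesicle markers, CD9 had levels of 4.45 with NC1 and 3.97 with miR-891b in HCT116, and of 3.01 and 3.04 in A549. It was thus 0.48 lower (1.39-fold) with miR-891b in HCT116 and differed by 0.031 in A549, within the spread over spots. CD63 stood at 7.23 and 7.22 in HCT116 and at 8.0 and 8.41 in A549. Its change was -0.016 in HCT116 and 0.41 (1.33-fold higher) in A549. CD81 had levels of 6.29 and 6.11 in HCT116 and 5.87 and 6.36 in A549, a change of -0.19 and of 0.50 (1.41-fold higher). A second CD81 probe, in an area of stray signal on at least 1 array (15%), gave -0.17 and 0.44. All 3 markers were therefore below 0 in HCT116, with a median of -0.19, and above 0 in A549, with a median of 0.41, and none reached 2-fold in either line. The direction in A549 held under each scaling, but that of CD63 in HCT116 turned to 0.10 with quantile normalization, 0.06 with normexp and quantile normalization and 0.02 with median scaling.

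The size of several A549 changes depended on the scaling. CD63 was 0.92 higher in A549 after quantile normalization and 0.97 after normexp and quantile normalization, against 0.41 in the main setting, and CD81 was 0.84 and 0.85 higher against 0.50. CD151, which anchors laminin-binding integrins, turned from -0.059 to 0.40 and 0.43, and TSPAN3 from -0.0096 to 0.31 and 0.35. CD9 stayed small, at 0.12 and 0.18. None of these values reached 2-fold. In limma's fit over both lines CD9 changed by -0.22 ± 0.26 (SE, 4 arrays, adjusted p = 0.87), CD63 by 0.20 ± 0.25 (adjusted p = 0.88) and CD81 by 0.16 ± 0.28 (adjusted p = 0.92), so none of the 3 was called.

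**Figure D2:**
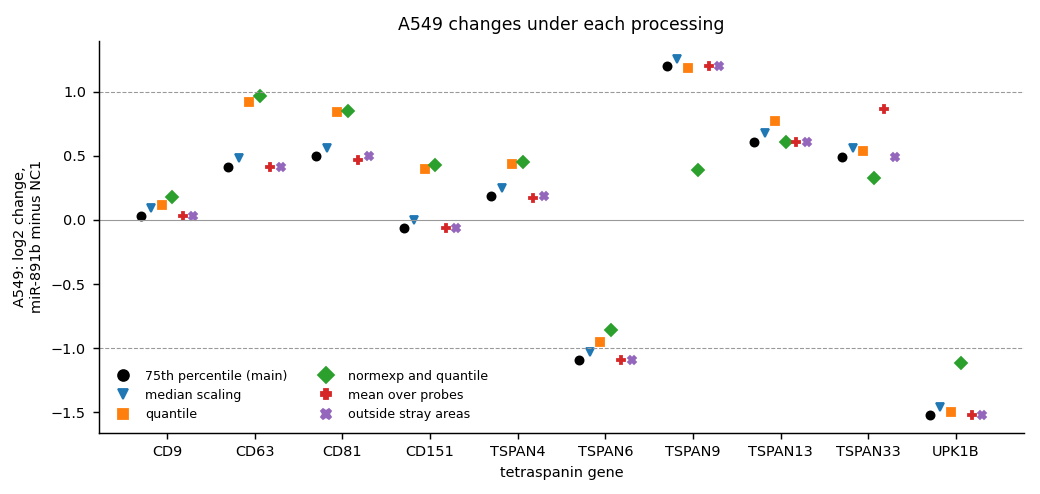
A549 change (log2, miR-891b minus NC1) of 10 tetraspanins under 6 ways of processing, each point 1 gene under 1 setting, with dashed lines at 2-fold. CD63, CD81 and CD151 lie higher in both settings with quantile normalization than in the main setting, and TSPAN9 drops to 0.39 with normexp.

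The members tied to integrins and cell motility are CD151, CD82, TSPAN1, TSPAN4, TSPAN7 and TSPAN8. CD82, known as a suppressor of metastasis, had levels of 1.13 and 0.75 in HCT116 and 0.22 and 0.89 in A549, so it was 0.38 lower with miR-891b in HCT116 and 0.68 higher (1.60-fold) in A549. TSPAN1, which is often raised in epithelial cancers, had levels of 2.11 and 1.43 in HCT116, 0.68 lower (1.60-fold), and of 0.087 and 0.22 in A549, a change of 0.13. CD151 had levels between 8.23 and 8.35 on all 4 arrays, with changes of -0.015 and -0.059. TSPAN4, abundant in the migrasomes that moving cells leave behind, changed by -0.14 and 0.19. The 4 of these genes measured in HCT116 were all below 0 there (CD151 turned above 0 under 3 other scalings), and 4 of the 5 measured in A549 were above 0.

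TSPAN8, a tetraspanin of gut epithelium linked to motility and vesicles, was not well above background in HCT116 with NC1 (-4.30) but was with miR-891b (-1.82), which makes it at least 3.32-fold higher. This bound uses, for the NC1 array, the dimmest gene probe that it still marked as well above background. It holds for the main setting only. In A549 its levels were 1.97 and 2.71, 0.74 higher (1.67-fold) with miR-891b. TSPAN8 was thus higher with miR-891b in both lines. Its fitted change in limma was 1.61 ± 0.49 (SE, 4 arrays, adjusted p = 0.79), and it uses the dim value of HCT116 NC1 as it stands. With normexp and quantile normalization this limma estimate fell to 0.50.

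TSPAN7 is a cell-surface tetraspanin best known from nerve cells. It was above background on HCT116 NC1 (-2.41) and on A549 miR-891b (-2.65), and not on HCT116 miR-891b (-3.83) or A549 NC1 (-5.94). With miR-891b it was at least 1.65-fold lower in HCT116 and at least 2.46-fold higher in A549. All 4 levels were -2.41 or lower, well under the 75th percentile of their array, and 93 gene names (0.215% of all) were above background on this pair of arrays alone.

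The TspanC8 members TSPAN5, TSPAN10, TSPAN14, TSPAN15, TSPAN17 and TSPAN33 carry ADAM10 to the cell surface and direct it to its substrates. All 6 were measured on all 4 arrays and, by the probe standing for each gene, 0 of 6 passed 2-fold with miR-891b in either line. The medians were -0.0066 in HCT116 and 0.025 in A549. TSPAN15 had levels of 0.72 and 0.014 in HCT116, the widest change of any tetraspanin measured there (0.70 lower, 1.63-fold), and of 1.36 and 1.39 in A549. TSPAN5 was 0.41 higher in HCT116 and 0.17 lower in A549. TSPAN33 was 0.20 lower in HCT116 and 0.49 higher in A549. Its other probes gave 0.84 and 1.29 in A549, the latter past 2-fold, so its size there depends on the probe. Those probes also passed 2-fold toward HCT116 with NC1 (A549 minus HCT116 -1.16 and -1.26), but not with miR-891b (0.045 and 0.23). TSPAN10 and TSPAN17 changed by 0.12 or less in both lines. A second TSPAN17 probe, in an area of stray signal on at least 1 array (11.3%), gave 0.56 in A549. The TSPAN14 probe lay in an area of stray signal (28.4% of dim neighbours lit on at least 1 array). Its changes were -0.044 and -0.084, and the other TSPAN14 probes gave -0.17 to -0.54 in A549. ADAM10 itself changed by -0.036 and -0.011.

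TSPAN12, a helper of the Norrin receptor Frizzled-4, changed by -0.26 in HCT116 and -0.17 in A549. The leukocyte members CD37, CD53 and TSPAN32 were not above background on any array, with levels between -6.04 and -4.52. Leukocyte markers were above background for 4 of 6 genes on every array (log2 of the summed linear levels 3.13 to 3.82), with CD3E and MS4A1 not above background on any.

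The uroplakins UPK1A and UPK1B form plaques on bladder epithelium together with UPK2 and UPK3A. UPK1A had levels of -0.99 and -1.60 in HCT116, 0.61 lower (1.52-fold) with miR-891b, and of -2.76 and -2.51 in A549, 0.25 higher. UPK1B was not well above background in HCT116 with NC1 (-5.68) but was with miR-891b (-2.37), at least 2.26-fold higher in the main setting. In A549 it went the other way, with 1.99 under NC1 and 0.48 under miR-891b, 1.52 lower (2.87-fold), the lowest change of the 24 tetraspanins measured there. It stayed past 2-fold in A549 under each other scaling (-1.5 to -1.12). The limma estimate of its change over both lines turned from 0.89 to -0.41 with normexp and quantile normalization. The partners UPK2 and UPK3A, which are defining markers of that epithelium, were not above background on any array, while UPK3B was on all 4, with levels of -1.5 and -1.88 in HCT116 and -1.43 and -1.77 in A549.

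TSPAN8 and UPK1B shared a pattern of detection in HCT116, above background with miR-891b only, and both were far brighter in A549. Of 3128 genes above background in A549 but not in HCT116 with NC1, 285 (9.11%) were above background in HCT116 with miR-891b and the same bound put 133 (4.25%) past 2-fold. The A549 marker list gave 5 of 6 genes above background in HCT116 with NC1 and 4 of 6 with miR-891b. The log2 of its summed linear levels was 6.08 and 5.89 in HCT116, against 11.6 and 11.1 in A549. In HCT116 KRT81 alone stood at 5.98 and 5.70. ALDH1A1 was not above background on either HCT116 array and AKR1C1 not on the miR-891b array, whereas AKR1B10 went from -2.29 to 2.18.

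The remaining members are less well placed in a pathway. TSPAN6, which has been linked to vesicle release and to the control of antiviral signalling, had levels of 4.22 and 3.84 in HCT116 (0.37 lower) and of 4.57 and 3.48 in A549 (1.09 lower, 2.13-fold). Among the 6 members lower in both lines it had the lowest change in each. Its A549 change was -0.95 after quantile normalization and -0.86 with normexp, under 2-fold in both. TSPAN9, best known from platelets, had levels of -1.06 and -0.60 in HCT116 (0.46 higher) and of -1.88 and -0.68 in A549 (1.20 higher, 2.30-fold). It was higher in both lines under each setting, but its A549 change was 0.39 with normexp and quantile normalization. In the limma fit over both lines TSPAN6 changed by -0.73 ± 0.29 (SE, 4 arrays) and TSPAN9 by 0.83 ± 0.29, both with adjusted p = 0.79.

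TSPAN13 was 0.36 lower with miR-891b in HCT116 and 0.61 higher in A549. TSPAN18, which assists calcium entry in endothelial cells, was 0.31 lower and 0.45 higher. The broadly expressed TSPAN3 changed by 0.085 in HCT116 and -0.0096 in A549. TSPAN11 and TSPAN31 were below 0 in both lines, with changes of -0.27 and -0.13 in HCT116 and of -0.035 and -0.093 in A549, and the small A549 values turned above 0 with normexp and quantile normalization. TSPAN19 was above background on A549 NC1 only (-3.39) and at least 1.46-fold lower with miR-891b. TSPAN2, known from myelin-forming cells, and TSPAN16 were not above background on any array.

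Set side by side over the 22 genes above background on all 4 arrays, 11 tetraspanins were lower with miR-891b in HCT116 and higher in A549. These were CD9, CD63, CD81, CD82, TSPAN1, TSPAN4, TSPAN13, TSPAN15, TSPAN18, TSPAN33 and UPK1A. The 11 were 50% of the members, against 21.8% of the 18062 genes above background on all arrays. A further 6 were lower in both lines, 3 were higher in both, and TSPAN3 and TSPAN5 were higher in HCT116 and lower in A549. The A549 change lay above the HCT116 change for 16 of 22 (72.7%), against 45.7% of all genes. Under the 6 other settings, 11 or 12 members were lower in HCT116 and higher in A549, but not always the same ones. The authors' values, among these settings, nearly equal the main ones. CD63 left under median scaling and under quantile normalization with or without normexp. TSPAN11 entered under median scaling, TSPAN14 under quantile normalization, and TSPAN11 and TSPAN31 under normexp and quantile normalization. Many of these changes are small, such as the 0.016 of CD63 in HCT116 and the 0.027 of TSPAN15 in A549, and with 1 array per group the difference between the lines in the response has no test.

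**Figure D3:**
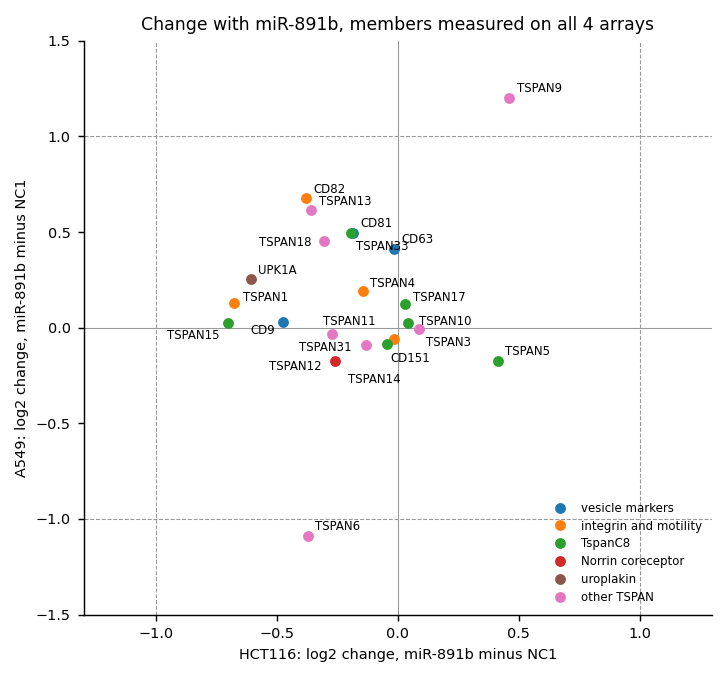
Change with miR-891b (log2) in HCT116 (x axis) and in A549 (y axis) for the 22 tetraspanins above background on all 4 arrays, 1 point per gene, coloured by role, with dashed lines at 2-fold. The upper left quadrant holds 11 genes, TSPAN9 is alone at the top and TSPAN6 alone at the bottom.

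Differences past 2-fold were more frequent between the lines than between miR-891b and NC1, among the members and over all genes. With NC1, 22 tetraspanins were measured in both lines. CD9, TSPAN1, TSPAN5, TSPAN12, TSPAN18 and UPK1A, 6 of 22, were 2-fold or more higher in HCT116, where 16.2% of 19218 genes were, and TSPAN3, TSPAN4 and TSPAN13, 3 of 22, were higher in A549, where 11.1% were. With miR-891b, 24 were measured, of which 4 were higher in HCT116 (20.7% of 18576 genes) and 7 in A549 (11.4%). TSPAN1, TSPAN5, TSPAN12 and TSPAN18 passed 2-fold toward HCT116 on both pairs of arrays and TSPAN3, TSPAN4 and TSPAN13 toward A549. For the line difference, limma fitted both pairs with the transfection as a term and called 31.9% of 22717 genes at an adjusted p under 0.05 (Benjamini-Hochberg), 15.5% higher in A549 and 16.4% higher in HCT116. Among 25 tetraspanins it called 11 (15 at an unadjusted p under 0.05), 5 higher in A549 and 6 higher in HCT116. No test compares this share with that of all genes. The p-values measure only the spread between these 4 samples. In this fit that spread is how far a gene's miR-891b change differs between the lines, moderated over all genes, and not a spread between replicates.

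Toward HCT116, TSPAN5 had levels of 4.42 and 4.83 in HCT116 and 1.78 and 1.61 in A549, and limma gave an A549 minus HCT116 difference of -2.93 ± 0.27 (SE, 4 arrays, adjusted p = 0.0043). The line groups did not overlap. TSPAN18 had 0.85 and 0.54 in HCT116 and -2.39 and -1.94 in A549, where limma gave -2.86 ± 0.30 (adjusted p = 0.0056). TSPAN12 had -0.080 and -0.34 in HCT116 and -1.5 and -1.67 in A549 (limma -1.38 ± 0.23, adjusted p = 0.019). TSPAN1, with the levels given above, differed by -1.62 ± 0.30 (limma adjusted p = 0.025), CD9 by -1.19 ± 0.26 (adjusted p = 0.036) and UPK1A by -1.34 ± 0.31 (adjusted p = 0.041). For all 6 genes both HCT116 arrays lay above both A549 arrays. They were picked by the limma call, and the share of all genes without such overlap was not counted, so this adds no support.

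Toward A549, TSPAN4 had 3.46 and 3.31 in HCT116 and 5.16 and 5.35 in A549 (limma 1.87 ± 0.25, adjusted p = 0.010), and its second probe gave line differences of 1.71 and 1.89. TSPAN3 had 5.35 and 5.44 in HCT116 and 6.65 and 6.64 in A549 (limma 1.25 ± 0.23, adjusted p = 0.024). TSPAN13 had 1.45 and 1.09 in HCT116 and 2.70 and 3.31 in A549 (limma 1.74 ± 0.33, adjusted p = 0.026). TSPAN8 was at least 45.8-fold higher in A549 with NC1 and 23.0-fold higher with miR-891b, and limma called it (adjusted p = 0.0040). UPK1B was at least 46.6-fold higher with NC1 and 7.19-fold higher with miR-891b (limma adjusted p = 0.039). The fitted values of these last genes rest on a dim HCT116 array, and their bounds hold for the main setting only. With normexp and quantile normalization the limma estimate fell from 5.40 to 2.63 for TSPAN8 and from 5.26 to 1.83 for UPK1B. CD63 was 0.76 higher in A549 with NC1 and 1.19 higher with miR-891b and missed the limit in limma (adjusted p = 0.052, 0.032 to 0.063 under the other settings), while the probes standing for CD81 and CD151 differed by 0.43 or less on either pair. With miR-891b these line differences were 0.61 (CD81) and 0.71 (CD151) after quantile normalization, against 0.26 and 0.063.

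Some of the called line differences depended on the background correction. With normexp and quantile normalization limma called 6 of the 25 tetraspanins, and TSPAN12 and UPK1A dropped to -0.54 and -0.44 with NC1. In that setting limma no longer called TSPAN1 (adjusted p = 0.05003), TSPAN13 (0.055), TSPAN12 (0.056), CD9 (0.061), UPK1B (0.077) or UPK1A (0.16). The limma call of CD9 was also lost after quantile normalization (adjusted p = 0.055, 0.021 to 0.061 over the settings). That of UPK1B was lost with the authors' values (limma adjusted p = 0.054, 0.033 to 0.077 over the settings), and that of UPK1A with the authors' values and with median scaling (limma adjusted p = 0.0504, 0.023 to 0.16 over the settings). TSPAN5, TSPAN18, TSPAN3, TSPAN4 and TSPAN13 were past 2-fold on both pairs in each setting in which they were measured, but TSPAN18 fell with normexp to -1.27 with NC1 and -1.02 with miR-891b, and its limma estimate to -1.15 ± 0.11. TSPAN5 was not fitted outside areas of stray signal, since its probe lay in one (14.7% of dim neighbours lit).

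**Figure D4:**
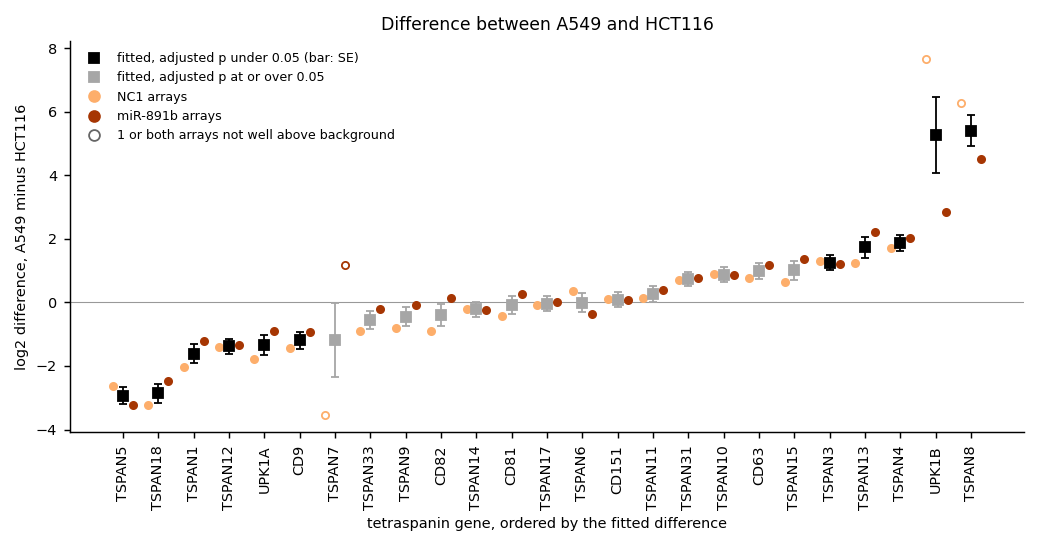
Difference between A549 and HCT116 (log2, A549 minus HCT116) for the 25 tetraspanins fitted, ordered by the fitted difference. Squares are limma's estimate with its SE over the 4 arrays (black where the adjusted p is under 0.05), circles are the NC1 pair (light) and the miR-891b pair (dark), open where an array was not well above background. The 6 black squares on the left are higher in HCT116 and the 5 on the right higher in A549.

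The upstream sequence of the 3 genes with the widest line difference in the limma estimate is given for reference (TSPAN8, UPK1B and TSPAN5, the last close to TSPAN18, which exceeds it after quantile normalization), as the 250 bases before a RefSeq start (GRCh38.p14, strand as the gene), with every CG in capitals. With normexp and quantile normalization the limma estimate of UPK1B was 1.83, under that of TSPAN4 (2.02), so the choice of genes depends on the setting. RefSeq entries were found for 23 of the 31 members. TSPAN5 lies at chr4:98658612-98658861 (minus strand), UPK1B at chr3:119173348-119173597 (plus strand) and TSPAN8 at chr12:71158000-71158249 (minus strand).
TSPAN5: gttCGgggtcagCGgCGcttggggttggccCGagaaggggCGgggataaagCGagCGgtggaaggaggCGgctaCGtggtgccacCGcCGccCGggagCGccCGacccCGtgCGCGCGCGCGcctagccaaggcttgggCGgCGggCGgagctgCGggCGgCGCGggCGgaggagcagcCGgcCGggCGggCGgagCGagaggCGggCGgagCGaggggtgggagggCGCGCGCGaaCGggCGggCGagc
UPK1B: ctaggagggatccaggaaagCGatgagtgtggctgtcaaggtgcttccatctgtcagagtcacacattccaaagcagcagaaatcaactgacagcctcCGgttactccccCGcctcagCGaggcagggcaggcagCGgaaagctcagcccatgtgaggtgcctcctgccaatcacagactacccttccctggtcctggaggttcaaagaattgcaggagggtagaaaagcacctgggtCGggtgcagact
TSPAN8: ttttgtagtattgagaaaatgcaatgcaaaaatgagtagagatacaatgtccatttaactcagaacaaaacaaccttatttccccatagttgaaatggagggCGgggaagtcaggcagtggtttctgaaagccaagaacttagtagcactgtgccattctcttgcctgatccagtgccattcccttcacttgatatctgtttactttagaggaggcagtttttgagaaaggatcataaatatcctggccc
These stretches hold 43, 6 and 1 CG. Over the full entry of 300 bases, which runs past the start, the counts are 50, 11 and 1, against a median of 14 (quartiles 4 and 28) over all 35116 entries, and 1.29% of all entries hold as many as TSPAN5 while 96.0% hold as many as TSPAN8. The other TSPAN8 entry holds 3. This is a property of the sequence only, and methylation was not measured here.

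A list of 40 genes that bind tetraspanins or act with them was also read. With miR-891b, 1 of 35 measured in HCT116 was lower by 2-fold and 0 were higher (median -0.061), where 0.843% and 1.16% of all genes were. In A549 0 of 32 were lower and 3 higher (median -0.0074), where 5.57% and 4.01% of all genes were. In HCT116 the lower gene was IFITM1, an antiviral membrane protein that binds CD81, with levels of 1.5 and -0.024 (1.52 lower) and a change of -0.17 in A549. In A549, IGSF8, the direct partner of CD9 and CD81, went from -0.89 to 0.31 (1.20 higher) and was 0.39 lower in HCT116. ITGA5, the fibronectin receptor subunit, went from 0.42 to 1.45 (1.03 higher). ICAM1 went from -3.62 to -1.26 (2.36 higher), with its probe in an area of stray signal on at least 1 array (20.6%). The related PTGFRN changed by 0.13 in HCT116 and 0.50 in A549, and IGSF3 by -0.56 and -0.038. Between the lines with NC1, 8 of 31 partners measured were 2-fold or more higher in HCT116 and 6 in A549, where 16.2% and 11.1% of all genes were.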

How the data were processed

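Total RNA (100 ng) from 4 groups, 1 array each, was labelled with Cy3 and hybridised to Agilent arrays, per the labels. The authors quantified the scans with Agilent Feature Extraction 11.5.1.1, per the submitters' processing notes, and the deposited scanner files hold processed intensity values on a linear scale with hg19 probe positions, per the file headers. A deposited table holds the authors' own log2 values, and no source used here says how they were made. Compared with the scanner values they equalled log2 processed signal minus the 75th percentile to a median of 0.0069 or less (at most 0.109), with column medians of -3.80, -3.60, -3.71 and -3.68, so their scale, centring and direction are those used here. 0 columns of samples outside the series were used.

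Spots with outlier marks were left out, log2 signals of spots with the same probe were averaged, and each array's 75th percentile over gene probes was subtracted (54.9 and 57.0 in HCT116, 74.8 and 74.2 in A549). Where a probe was above background on 1 array of a pair only, the fold is a bound against the higher of that array's lowest signal well above background and the probe's own. Such bounds were computed in the main setting only. The additive model (line and transfection) used limma 3.58.1 (lmFit, eBayes) in R 4.3.3 on genes above background on at least 2 of 4 arrays, with Benjamini-Hochberg adjustment over all genes fitted. Its code was run on simulated data with additive effects only, which does not cover a response that differs between the lines. Python 3.11.15 (pandas 2.3.3, numpy 2.4.6) gave the other values. With 1 array per group, the residual of the fit is the difference between the lines in the miR-891b change, for either term. The number of arrays limits the precision.

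The members, roles, partner and marker lists and tests were chosen with earlier results of these data known. Every member is named. Levels on each array are given for CD9, CD63, CD81, members past 2-fold with miR-891b, and members past 2-fold between the lines on both pairs, and some others. Annotation of hg19 was not used here, so exon and UTR positions of probes are not given. The alternatives were median scaling, quantile normalization, normexp (offset 50) followed by quantile normalization, the authors' values, no filter on dim probes, the mean over probes, leaving out areas of stray signal (at least 10% of dim neighbours within 10 rows and columns lit) and a 1.5-fold threshold.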

Additional observations from a re-analysis of the deposited data

Results flagged for a closer look

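UPK1B moved in opposite directions with miR-891b in the lines. In the main setting it was at least 2.26-fold higher in HCT116, where it was not well above background with NC1. It was 2.87-fold lower in A549, where it was above background on both arrays. With 1 array per group, this contrast between lines was not tested.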

How the results depend on the processing

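With 1 array per group no array could be left out within a group. The labels give no replicate numbers to use as a block. The limma fit has the line as a term and gives a single miR-891b minus NC1 estimate over both lines. Members lower by 2-fold in HCT116 numbered 0, and 1 with no filter on dim probes and 3 at 1.5-fold, and those higher numbered 0, and 3 with no filter. In A549 the 2 lower members became 1 under quantile normalization with or without normexp, and the 1 higher member became 0 with normexp and quantile normalization, 2 with no filter and 4 at 1.5-fold. Members higher in A549 than HCT116 with NC1 numbered 3, and 5 with no filter and 7 at 1.5-fold. The median line difference with NC1 was -0.14, and 0.11 outside areas of stray signal, a setting in which TSPAN5 drops out and another TSPAN14 probe is read. Calls by limma for the line difference numbered 11, and 6 with normexp and quantile normalization, 9 with the authors' values and 12 with median scaling or with genes above background on all 4 arrays. TSPAN7, TSPAN8 and UPK1B are not fitted in that last setting. For miR-891b minus NC1 limma called 0 members in each setting, with a lowest adjusted p among members of 0.765 to 0.836. Of 640 values of single members under the alternatives, 88 differed from the main value by more than 0.148, the 95th percentile of the SD over spots in A549. Past 2-fold, 8 fell below it and 0 changed sign, and 1 value passed it. The cause of these shifts was not tested. The count of 11 members lower in HCT116 and higher in A549, a result chosen after seeing the data, was 11 or 12 under 6 other settings. Some members were exchanged between settings. Signal near background limits TSPAN7, TSPAN8, TSPAN19 and UPK1B to bounds in at least 1 comparison.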

Other observations

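Further array names refer to noncoding RNAs near tetraspanin genes and are no members of the family. Of 5 such names, lnc-TSPAN32-1 was above background on HCT116 NC1 only (-1.91), with -5.16 on HCT116 miR-891b and -6.0 and -5.85 on the A549 arrays, and was at least 2.33-fold lower with miR-891b in HCT116. The names lnc-TSPAN12-1, lnc-TSPAN12-2, lnc-TSPAN5-1 and lnc-TSPAN5-2 were not above background on any array.

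The TSPAN19 probe (hg19 chr12:85409721-85411264, minus strand) was singled out after the sequences were seen. It holds 12 bases identical, not complementary, to bases 1 to 12 of miR-891b, shown in capitals.
TSPAN19: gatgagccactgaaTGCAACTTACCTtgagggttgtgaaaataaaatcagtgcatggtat
Only 2 of 58201 gene probes (0.00344%), this one included, hold any stretch of 12 bases of miR-891b. Its levels were -3.87 and -4.61 in HCT116 and -3.39 and -4.22 in A549, and only that of A549 NC1 was well above background. Neither miR-891b array was higher, but levels at background cannot show whether the shared bases affect the probe. The longest run complementary to miR-891b in a tetraspanin probe was 6 bases, in 5 probes, and 17.6% of all probes hold such a run.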
